A study of Homo sapiens with 45 samples.

Results

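A375 is an established human melanoma cell line with an activating BRAF mutation. The series holds 45 Affymetrix U133 Plus 2.0 arrays of these cells, and the 2 arrays described here come from cultures transfected with a siRNA pool against ETS1 or against SP1 and harvested 48 h later. They were chosen by their labels, and no measured value entered the choice. Each of these siRNAs has 1 array, so neither knockdown has a replicate of its own. The study placed both in its experimental batch KD3, together with 5 arrays of cells given siRNA against CCNB2, MCM2, MITF, PIAS1 or STAT3 (1 array each), and those 5 arrays served as the reference. All 7 cultures received a targeting siRNA pool and the same transfection reagent, the labels and the methods giving different siRNA concentrations. The reference is therefore the median of 5 other knockdowns and not untreated cells, and it is shared by both comparisons. The series also holds 9 arrays of batch KD1 and 23 of batch KD2, each with its own targeting siRNA, and 3 control siRNA and 3 untreated arrays whose batch is not given.

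ETS1 is a transcription factor of the ETS family. These factors bind DNA around a GGAA core through the ETS domain, and ETS1 is phosphorylated and activated by ERK, the kinase at the end of the RAS, RAF and MEK cascade that BRAF mutations switch on in melanoma. Collagenase and other matrix-degrading enzymes, osteopontin and integrins are among its described targets. SP1 is a zinc finger factor that binds GC boxes in very many promoters, often beside ETS factors, and its relatives SP3 and SP4 bind the same boxes.

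Levels are given as log2 of the array intensity. A gene was represented by its brightest probe set (the group of probes that measures it), and genes whose mean over the 7 arrays lay under 1.5 times the median of the 3' BioB hybridisation control (8.59 on the log2 scale) were treated as below noise, which left 4766 of 19775 genes. A gene was called higher or lower in an array when it lay at least 1.5-fold from the median of the 5 other arrays and outside their whole range. With 1 array per siRNA this is a rule of size and not a test. The test was limma over the 7 arrays, which takes the spread from the 5 other arrays, with p-values adjusted over 54675 probe sets by the Benjamini-Hochberg method.

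Of the 3 genes that passed the call rule in both arrays, CAV1 and SPP1 were lower in both and MMP1 was lower after ETS1 siRNA and higher after SP1 siRNA. The promoters of CAV1 and SPP1 are shown because these genes were lower in both arrays, and that of ADI1 because it had the smallest adjusted p of any gene but SP1 after SP1 siRNA in the wider limma fit described further on. The windows run from 250 bases before to 50 bases after the transcript start in RefSeq (GRCh38.p14), each is read 5′ to 3′ on the strand of its gene, and CAV1 has further listed starts that are not shown. Capitals mark the GC box GGGCGG and the ETS cores CGGAAG and AGGAAG, searched on both strands. The CAV1 window lies at chr7:116524759-116525058 on the plus strand, the SPP1 window at chr4:87975464-87975763 on the plus strand, and the ADI1 window at chr2:3519482-3519781 on the minus strand.
CAV1: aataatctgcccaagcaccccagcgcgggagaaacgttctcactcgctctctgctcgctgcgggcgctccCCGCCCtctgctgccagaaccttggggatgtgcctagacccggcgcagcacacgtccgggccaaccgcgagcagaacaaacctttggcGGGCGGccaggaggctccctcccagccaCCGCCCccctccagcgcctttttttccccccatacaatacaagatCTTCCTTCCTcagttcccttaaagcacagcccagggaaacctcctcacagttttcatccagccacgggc
SPP1: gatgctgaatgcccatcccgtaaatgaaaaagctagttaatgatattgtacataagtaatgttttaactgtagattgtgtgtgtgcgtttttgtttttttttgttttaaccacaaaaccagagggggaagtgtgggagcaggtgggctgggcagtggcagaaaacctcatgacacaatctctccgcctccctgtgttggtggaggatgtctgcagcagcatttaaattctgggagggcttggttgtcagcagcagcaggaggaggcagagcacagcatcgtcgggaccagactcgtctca
ADI1: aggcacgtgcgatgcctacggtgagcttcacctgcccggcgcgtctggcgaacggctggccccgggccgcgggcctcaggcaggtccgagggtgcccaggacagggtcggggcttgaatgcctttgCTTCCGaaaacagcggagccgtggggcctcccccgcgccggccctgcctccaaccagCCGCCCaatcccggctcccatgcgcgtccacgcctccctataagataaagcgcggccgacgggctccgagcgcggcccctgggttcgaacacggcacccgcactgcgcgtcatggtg

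The CAV1 window held 3 GC boxes, the nearest at positions -64 to -59 from the start, and 2 overlapping matches to an ETS core, at -19 to -14 and -15 to -10. The ADI1 window held 1 GC box, at -67 to -62, and 1 ETS core, at -124 to -119. The SPP1 window held neither, which says only that these letters are absent from these 300 bases. Other letters around GGAA, such as GGGAAG in the SPP1 window, were not searched. A GC box stood in 44.6% of all 27305 promoters and in 70.8% of the 4074 promoters of genes above noise, an ETS core in 47.2% and 61.3%. Of the 13 genes called lower after SP1 siRNA that had a promoter in the table (SP1 left out), 8 held a GC box (61.5%), and of the 6 genes called after ETS1 siRNA (ETS1 left out) 4 held an ETS core. The promoters of ETS1, MMP1, DPYSL2 and MDK were not used here. A match is a description of the letters and not a bound site.

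The 2 targets were lower in their own arrays, which checks the labels and no more, since the study kept siRNAs that lowered their target. ETS1 mRNA measured 7.83 after ETS1 siRNA and 9.89 after SP1 siRNA, against 10.02, 9.65, 9.58, 10.15 and 10.17 in the arrays of CCNB2, MCM2, MITF, PIAS1 and STAT3 siRNA. The ETS1 siRNA array differed from the reference median by -2.20 on the log2 scale, which is 4.58-fold or 78.2% lower as measured. Since 7.83 is under the noise limit, the difference is at least 2.70-fold when that limit stands in for it. The SP1 siRNA array lay inside the range of the 5. The size also depends on the reference: ETS1 mRNA had medians of 8.43 in KD1 and 8.78 in KD2, below the KD3 reference of 10.02, and with control siRNA as the reference the difference was -1.32. A dimmer probe set gave the same difference (-2.20), and the dimmest, far below noise, gave -0.71.

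SP1 mRNA measured 8.18 after SP1 siRNA and 9.45 after ETS1 siRNA, against 9.61, 9.44, 9.40, 9.40 and 9.36 in the 5 other arrays. It differed from their median by -1.23, which is 2.34-fold or 57.3% lower as measured and at least 1.76-fold with the noise limit in place of 8.18, and the other SP1 probe sets differed by -1.50, -1.58 and -1.08. Every probe set of either target was lowest of 7 in its own array, for which the exact one-sided rank test gives 0.143, the smallest p that 7 arrays allow. In 3 of the 4 SP1 probe sets, all below noise, the ETS1 siRNA array lay 0.36 below the median, whereas the brightest one lay 0.04 above it, so the probe sets disagree on SP1 mRNA after ETS1 siRNA.

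limma over the 7 arrays called 1 probe set for SP1 siRNA, one of SP1 itself (log2 difference -1.51, SE 0.129, adjusted p = 0.0220), or 0.00183% of those tested in that direction. For ETS1 siRNA it called 0, and the brightest ETS1 probe set had a log2 difference of -2.09 (SE 0.228, adjusted p = 0.208). For the difference between the 2 arrays no probe set passed after adjustment either. The SP1 call was lost when CCNB2, MCM2, MITF or PIAS1 siRNA was left out, and 2 probe sets were called without STAT3 siRNA.

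A wider fit, chosen after the data had been seen, took in all 39 arrays with a targeting siRNA and treated the batch as a term. It called 2 probe sets for ETS1 siRNA (0.00366%, both lower), namely the 2 brighter ones of ETS1 (limma, adjusted p = 2.6e-06 and 1.7e-05). For SP1 siRNA it called 11 higher (0.0201%) and 21 lower (0.0384%), and these 32 probe sets represented 25 named genes. For the difference of ETS1 minus SP1 siRNA it called 4 higher (0.00732%) and 5 lower (0.00914%). Its differences are still taken from the mean of the 5 other KD3 arrays, and only its spread comes from knockdowns of many other genes. A gene can therefore pass without lying outside the values of all other arrays.

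**Figure D1:**
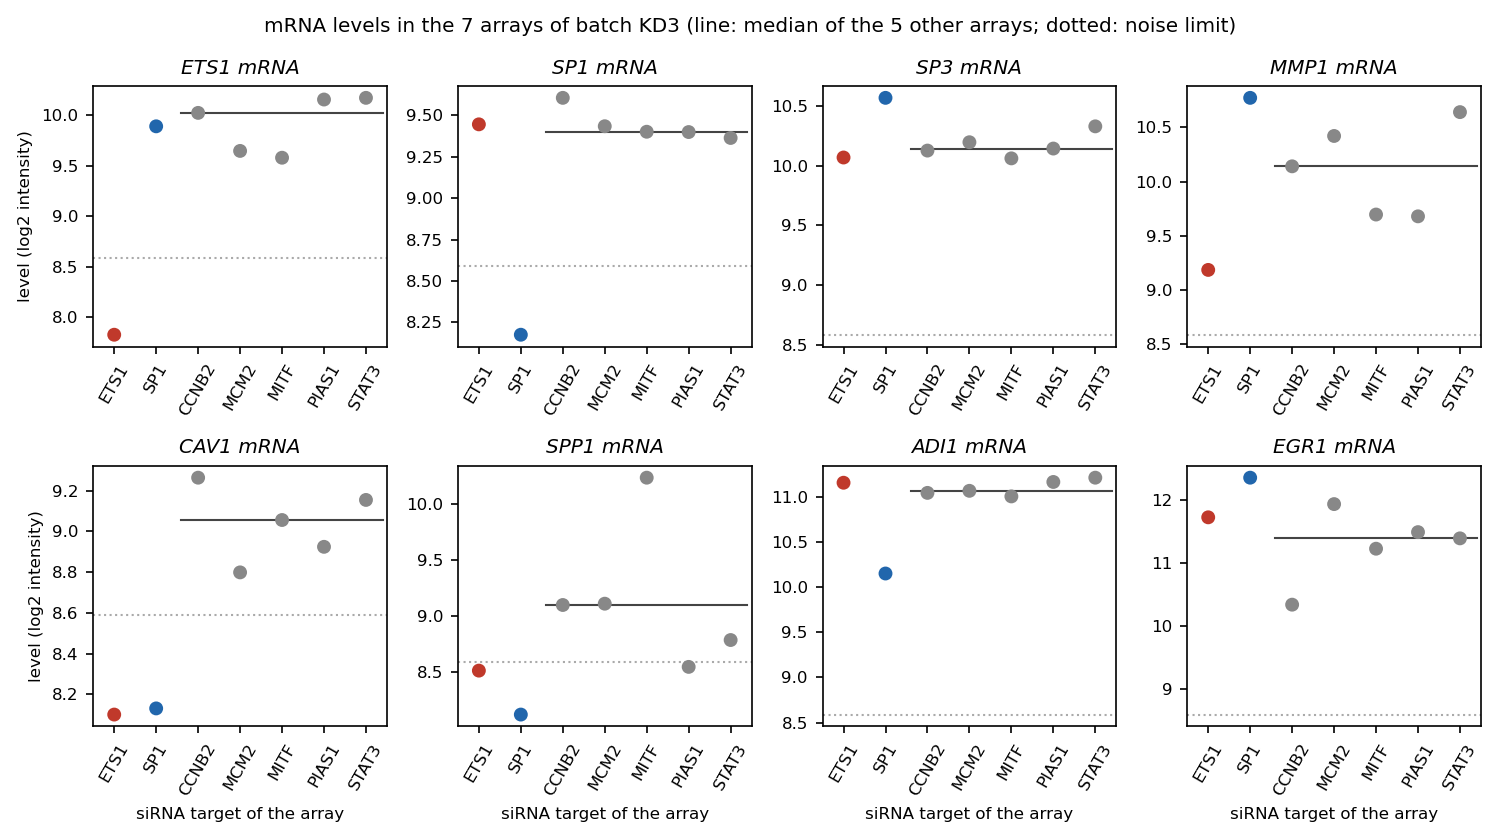
Level of 8 mRNAs (y axes, log2 intensity, each panel on its own scale) in the arrays of ETS1 siRNA (red), SP1 siRNA (blue) and 5 other siRNAs of batch KD3 (grey); each point is 1 array, the line is the median of the 5 grey points and the dotted line the noise limit of 8.59. ETS1, at 7.83, and SP1, at 8.18, were lowest in their own arrays, and CAV1 was lowest in both.

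After ETS1 siRNA, 9 genes passed the call rule, or 0.189% of the 4766 genes above noise, 2 of them higher (0.042%) and 7 lower (0.147%). Apart from ETS1 the lower genes were MMP1, CAV1, SLC25A24, ABCB10, DPYSL2 and SPP1, and the higher ones were UTS2 and HAPLN1. None passed limma in either fit except ETS1. Of the 7 lower genes, 4 (ETS1, CAV1, ABCB10 and SPP1) had levels under the noise limit after ETS1 siRNA, so that their differences are less certain in size.

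MMP1, the interstitial collagenase that cleaves fibrillar collagen and a textbook ETS1 target, measured 9.19 after ETS1 siRNA and 10.77 after SP1 siRNA, against 10.14, 10.42, 9.70, 9.68 and 10.64 in the 5 other arrays. The ETS1 siRNA array was the lowest of the 7 and the SP1 siRNA array the highest, at differences of -0.96 and 0.63. MMP1 varied widely across the series: the other 37 targeting arrays deviated from their batch reference by -1.73 to 1.42, the lowest being the array of siRNA against MAP2K1, the gene of the kinase MEK1.

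SLC25A24, a mitochondrial carrier of ATP-Mg and phosphate, measured 9.52 after ETS1 siRNA, against 10.32, 10.19, 10.11, 10.30 and 10.30 in the 5 other arrays (difference -0.78), though its dim second probe set differed by only -0.15. ABCB10, a transporter of the inner mitochondrial membrane, measured 8.16 after ETS1 siRNA, against 8.85 to 9.24 (-0.73). Both were lowest of the 39 targeting arrays after ETS1 siRNA, relative to their batch. DPYSL2, a cytosolic protein that binds tubulin and is known from axon growth, was likewise lowest of 39, at 9.29 after ETS1 siRNA, against 9.72 to 10.51 in the 5 other arrays (-0.72).

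UTS2, which encodes the vasoactive peptide urotensin 2, measured 10.47 after ETS1 siRNA, against 9.76, 10.39, 9.51, 9.72 and 9.81 in the 5 other arrays, so that the MCM2 siRNA array came close to it, and its dim second probe set differed by only 0.05. Its level differed far more between batches, with medians of 4.03 in KD1 and 4.90 in KD2. HAPLN1, the link protein that joins proteoglycans to hyaluronan, measured 10.70 after ETS1 siRNA, against 9.88 to 10.50 in the 5 other arrays, and was the highest of 39 relative to batch (0.63). All 4 of its probe sets were higher after ETS1 siRNA, by 0.41 to 0.63, but the call was lost without MCM2, MITF or STAT3 siRNA (0.55 to 0.66 over the 5 arrays left out in turn).

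Just outside the rule lay ITGB3, the integrin beta 3 subunit and another described ETS1 target, at 0.48 above the reference, and PHLDB2, at 0.54 below it. The members just inside were HAPLN1 at 0.63 and SPP1 at -0.59. IGFBP5 passed the fold alone (0.72 above the median) and was not called, because the MCM2 siRNA array lay higher. Over all genes, 12.4% were above and 13.3% below the range of the 5 arrays after ETS1 siRNA.

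After SP1 siRNA, 22 genes passed the call rule (0.462%), 7 of them higher (0.147%) and 15 lower (0.315%). MCRIP1 was above noise only through the SP1 siRNA array itself, and without it 6 genes were higher. Of the 15 lower genes, 7 had levels under the noise limit after SP1 siRNA (SP1, CAV1, SPP1, MARVELD1, MDK, TOB1 and TPP1). Those that also passed limma over 39 arrays were SP1, ADI1, MARVELD1, ZDHHC20, KPNA3 and ACAA2.

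ADI1, the acireductone dioxygenase of the methionine salvage pathway, measured 10.15 after SP1 siRNA, against 11.04, 11.07, 11.00, 11.16 and 11.21 in the 5 other arrays, and 11.15 after ETS1 siRNA. It was 0.92 lower on the log2 scale after SP1 siRNA, the spread of the 5 arrays being far smaller, and its other bright probe set differed by -0.95. limma over 39 arrays gave adjusted p = 1.4e-05 and 0.00109 for these probe sets. It also called both in the direct difference of ETS1 minus SP1 siRNA (1.005 and 0.92, adjusted p = 0.00146 and 0.0419).

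KPNA3, an importin alpha that carries proteins into the nucleus, measured 9.10 after SP1 siRNA, against 9.75 to 9.89 (difference -0.71, limma over 39 arrays adjusted p = 0.0100), and its second probe set differed by -0.75. ZDHHC20, a palmitoyltransferase, measured 9.68 after SP1 siRNA, against 10.33 to 10.58 (-0.78, adjusted p = 0.0474 in the same limma fit). ACAA2, the last enzyme of mitochondrial beta oxidation, measured 8.84 after SP1 siRNA, against 9.40 to 9.50 (-0.63, adjusted p = 0.00872), with other probe sets as small as -0.11. MARVELD1 measured 8.17 after SP1 siRNA, against 8.88 to 9.08 (-0.82, adjusted p = 0.00777), but its dim second probe set showed no such difference (0.08). All 4 genes were lowest of the 39 targeting arrays.

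The remaining lower genes were called by size and range but not by limma. MBNL2, a muscleblind splicing regulator, differed by -0.86, TOB1, an antiproliferative protein, by -0.78, CREBL2, a leucine zipper protein, by -0.71, and MDK, which encodes the heparin-binding growth factor midkine, by -0.72. TPM1, an actin-binding tropomyosin, differed by -0.63, TPP1, a lysosomal peptidase, by -0.63, and HSPB1, the small heat shock protein, by -0.62. Each was the lowest of 39 arrays after SP1 siRNA relative to its batch. TPM1 was also below the range of the 5 arrays after ETS1 siRNA (-0.42), as was MDK (-0.25). The TPM1 call was lost without CCNB2, PIAS1 or STAT3 siRNA (-0.65 to -0.55 over the 5 arrays left out in turn), and its probe sets disagreed (-0.63 to 0.18), as did those of MBNL2 (-0.86 to 0.02) and TPP1 (-0.63 to -0.14).

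The higher genes after SP1 siRNA included EGR1, an immediate early zinc finger factor that itself binds GC-rich sites, and CEMIP, which takes part in hyaluronan breakdown. EGR1 measured 12.35 after SP1 siRNA and 11.72 after ETS1 siRNA, against 10.34, 11.93, 11.23, 11.49 and 11.39 in the 5 other arrays. CEMIP measured 10.59 after SP1 siRNA and 9.93 after ETS1 siRNA, against 9.62, 9.34, 10.52, 9.70 and 9.51. For CEMIP the MITF siRNA array, at 10.52, came close to the SP1 siRNA array. For EGR1 the nearest reference array, MCM2 siRNA, lay farther off, at 11.93. Neither gene passed limma over 39 arrays.

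NCOA7, a nuclear receptor coactivator, was 0.86 above the reference after SP1 siRNA, PANK3, a pantothenate kinase of coenzyme A synthesis, 0.67, TIPARP, a mono-ADP-ribosyltransferase, 0.67, and MCRIP1 0.63. NCOA7 measured 11.01 after SP1 siRNA, against 10.10 to 10.72 in the 5 other arrays, the highest of them being MITF siRNA. TIPARP measured 10.82 after SP1 siRNA, against 9.82 to 10.30 in the 5 other arrays, and MCRIP1 measured 9.20, against 8.41 to 8.70. The mean of MCRIP1 over the other 6 arrays was 8.57, under the noise limit. The 3 probe sets of NCOA7 disagreed (-0.01 to 0.86), as did those of PANK3 (0.25 and 0.67). All 4 were highest of the 39 targeting arrays after SP1 siRNA, and none passed limma. The genes nearest to the rule were MCRIP1 at 0.63 inside and BNIP3L at 0.58 outside, and HSPB1 at -0.62 inside and DECR1 at -0.58 outside. CNOT6 and S100A2 passed the fold but lay inside the range of the 5 arrays.

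The wider limma fit also called probe sets that lay below noise or that the call rule did not reach. Of those named here, the probe sets of JDP2, IL20RB, HDAC6, SVBP and SLC41A3 lay below noise on average. By the log2 difference of that fit, PPA1, the cytosolic inorganic pyrophosphatase, fell by 0.61 after SP1 siRNA (adjusted p = 0.00330), and JDP2, a leucine zipper protein that represses AP-1 sites, fell by 1.53 (adjusted p = 0.000888). JDP2 measured 5.83 after SP1 siRNA and 6.44 after ETS1 siRNA, against a median of 7.31 and a lowest value of 7.08 in the 5 other arrays, so that both arrays lay below all 5. IL20RB, a cytokine receptor subunit, fell by 1.30 after SP1 siRNA (adjusted p = 0.00109). For CMBL 1 probe set fell by 0.80 (adjusted p = 0.0123), whereas the brighter one differed by -0.11. Higher after SP1 siRNA were HDAC6, a cytoplasmic deacetylase (0.97, adjusted p = 0.00120), SVBP, the vasohibin-binding protein (0.96, adjusted p = 0.00330), and 2 probe sets of SLC41A3 (0.97 and 0.84).

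**Figure D2:**
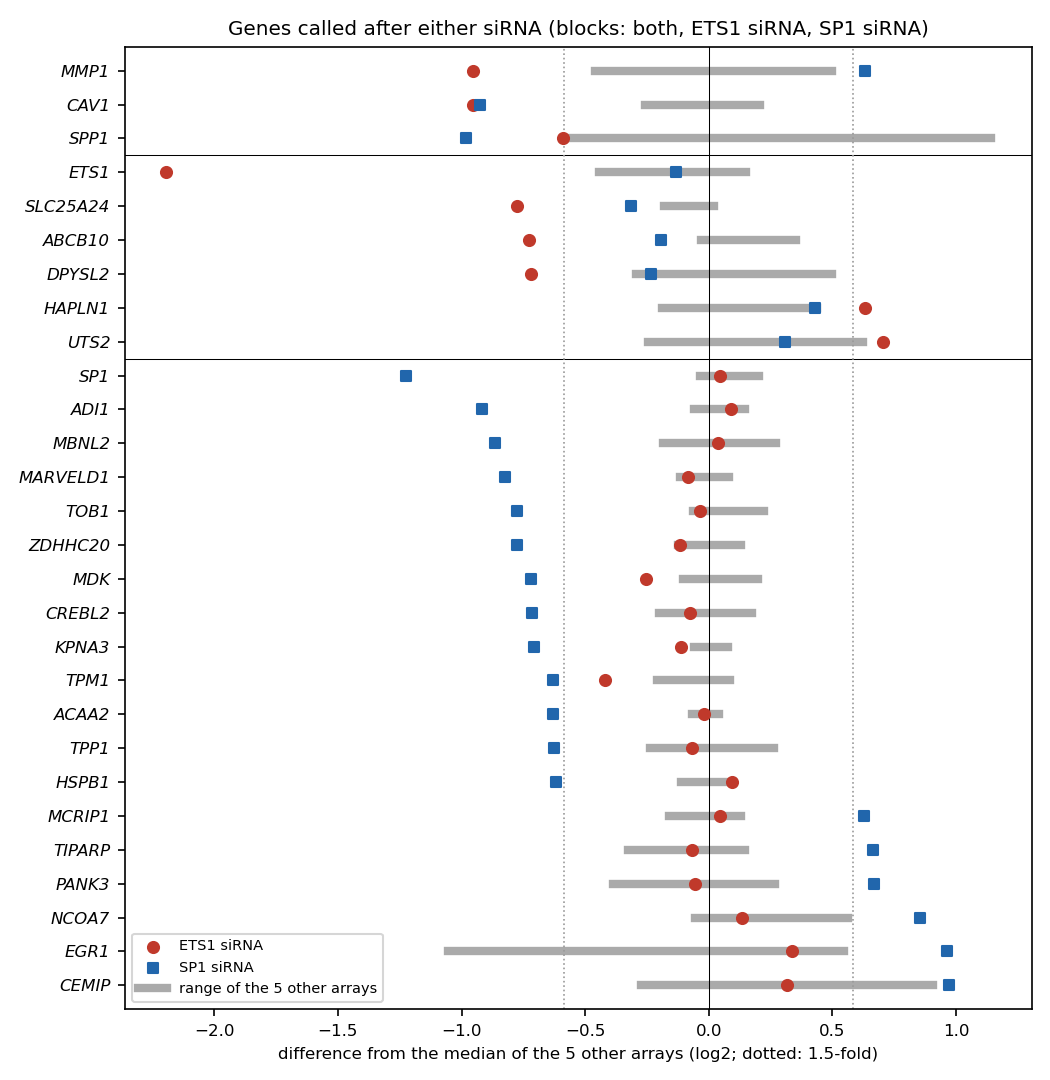
Difference from the median of the 5 other arrays (x axis, log2) of the genes called after either siRNA, for ETS1 siRNA (red circles) and SP1 siRNA (blue squares); grey bars span the 5 other arrays and dotted lines mark 1.5-fold. The blocks hold, from the top, genes called after both, after ETS1 siRNA and after SP1 siRNA. SP1 siRNA values of ADI1, KPNA3 and ACAA2 stand well clear of short grey bars. That of CEMIP lies near the end of a long bar, and that of EGR1 lies farther beyond a long bar.

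Both arrays shared 2 called genes in the same direction, both lower (0.042% of genes above noise), and 0 higher. These are 22.2% of the 9 genes called after ETS1 siRNA and 9.09% of the 22 called after SP1 siRNA. The comparisons use the same 5 reference arrays, so the overlap is not independent of them and is given as a count.

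CAV1, caveolin 1, the coat protein of caveolae, measured 8.10 after ETS1 siRNA and 8.13 after SP1 siRNA, against 9.26, 8.80, 9.06, 8.92 and 9.15 in the 5 other arrays. Both values lay under the noise limit. With that limit in their place, each difference was at least 1.38-fold, which is under the 1.5-fold of the call rule. As measured, both values lay below all 5, by 0.95 and 0.92 relative to their median, and its second probe set gave -0.98 and -0.87. Across the 39 targeting arrays these were the lowest and second lowest CAV1 values relative to batch, the other 37 deviating by -0.47 to 0.47. limma gave adjusted p = 0.363 for SP1 siRNA over 39 arrays, so that neither difference passed. The KD3 arrays as a whole had less CAV1 mRNA, the medians being 10.62 in KD1 and 10.53 in KD2.

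SPP1, which encodes the secreted phosphoprotein osteopontin, measured 8.51 after ETS1 siRNA and 8.12 after SP1 siRNA, against 9.10, 9.11, 10.24, 8.54 and 8.78 in the 5 other arrays. The ETS1 siRNA array thus lay only just under the PIAS1 siRNA array, both slightly under the noise limit, and the call after ETS1 siRNA (-0.59) was lost without CCNB2, MCM2 or MITF siRNA, leaving 1 shared gene. The call after SP1 siRNA (-0.98) held in each case, at -0.99 to -0.82. The SPP1 value after SP1 siRNA also lay under the noise limit. With that limit in place of the measured value, the difference in either array was at least 1.42-fold, under the 1.5-fold of the call rule. The second SPP1 probe set, below noise, differed by only -0.17 after ETS1 siRNA and -0.20 after SP1 siRNA. The other 37 arrays deviated by -1.29 to 1.14.

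The 2 arrays differed from each other by at least 1.5-fold in 17 genes that were higher after ETS1 than after SP1 siRNA (0.357%) and 23 that were lower (0.483%). MMP1 was the only gene called in opposite directions (0.021%), with a difference of -1.59 for ETS1 minus SP1 siRNA. Its call after SP1 siRNA was lost without MITF or PIAS1 siRNA (0.49 in each case), and the difference itself, which does not use the reference arrays, did not pass limma. With control siRNA (mean of 3 arrays) as the reference MMP1 was higher in both arrays, by 1.24 after ETS1 siRNA and 2.83 after SP1 siRNA, its medians in KD1 and KD2 being 7.19 and 7.55.

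Calls were taken as particular to 1 siRNA when the other array lay inside the range of the 5 and the 2 arrays were themselves at least 1.5-fold apart. ETS1 mRNA alone met this for ETS1 siRNA (0.021%). For SP1 siRNA 13 genes did (0.273%), which were SP1, ADI1, MBNL2, TOB1, MARVELD1, ZDHHC20, CREBL2 and ACAA2 among the lower ones and TIPARP, PANK3, NCOA7, CEMIP and EGR1 among the higher ones. By ETS1 minus SP1 siRNA the difference was largest for ADI1 (1.005) and MBNL2 (0.90) among the genes that were lower after SP1 siRNA, apart from SP1 (1.27), and for TIPARP (-0.73) and PANK3 (-0.72) among the higher ones. In the wider limma fit HDAC6 and 1 probe set of SLC41A3 were lower after ETS1 than after SP1 siRNA (-1.09 and -0.97), and IL20RB was higher (1.44). The probe sets of HDAC6, SLC41A3 and IL20RB all lay below noise on average.

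**Figure D3:**
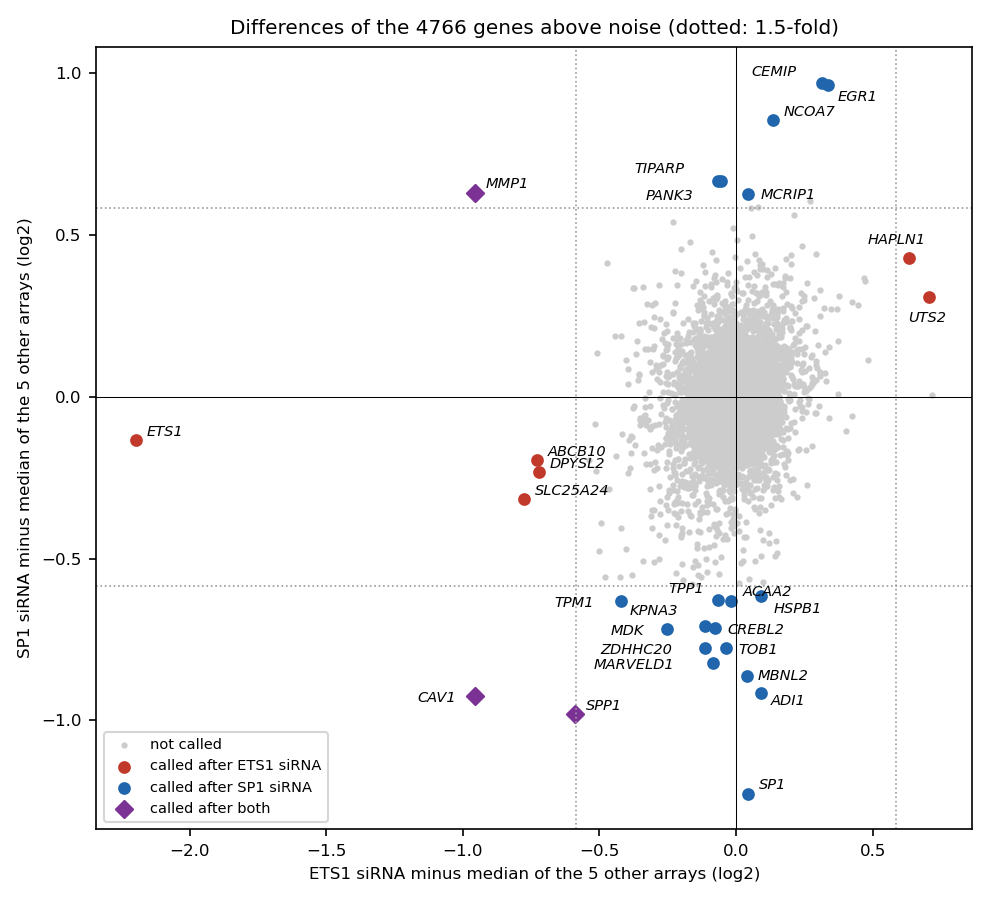
Difference from the median of the 5 other arrays after ETS1 siRNA (x axis, log2) and SP1 siRNA (y axis, log2) for the 4766 genes above noise; grey points were not called, coloured points were called after 1 or both siRNAs and dotted lines mark 1.5-fold. Only CAV1, SPP1 and MMP1 were called on both axes, and both axes are relative to the same 5 arrays.

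Relatives of each target that bind the same sites were examined next. SP3 measured 10.57 after SP1 siRNA and 10.07 after ETS1 siRNA, against 10.12, 10.19, 10.06, 10.14 and 10.33 in the 5 other arrays. It was 0.42 above their median after SP1 siRNA, under 1.5-fold, yet the highest of the 39 targeting arrays, whose other 37 reached 0.24. Its 5 probe sets ran from -0.09 to 0.64.

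SP4 lay below noise on average but measured 9.12 after SP1 siRNA and 7.94 after ETS1 siRNA, against 7.79, 7.71, 7.46, 7.99 and 7.99 in the 5 other arrays. It was 1.33 above the median after SP1 siRNA, again the highest of 39, and it passed limma over 39 arrays (adjusted p = 0.00120). SP2 measured 8.67 after SP1 siRNA, against 8.60 to 8.75. The probe sequences were not examined, and a shared signal between SP family probe sets was not tested.

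Of the 8 other SP and KLF members above noise, 0 were called after either siRNA, and their median difference was -0.11 after ETS1 siRNA and 0.01 after SP1 siRNA, against -0.01 and -0.00 over all genes above noise. KLF10, an early response repressor, differed by -0.30 after ETS1 siRNA and 0.29 after SP1 siRNA, and KLF6 by -0.18 and 0.19. Of these only KLF10 after SP1 siRNA, at 10.09, lay outside the range of the 5 arrays, the highest of which was 10.07.

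The 8 other ETS members above noise had a median of -0.05 after ETS1 siRNA, with 4 of 8 below the range of the 5 arrays (13.3% of all genes were below it), and 0.14 after SP1 siRNA, with 3 of 8 above the range (17.8% of all genes). None was called. ELK4, a partner of serum response factor, differed by -0.38 after ETS1 siRNA and -0.17 after SP1 siRNA. The probe sets of ELK4 ran from -0.38 to 0.11 after ETS1 siRNA. ETV5, a factor induced by ERK signalling, measured 9.99 after SP1 siRNA and 9.65 after ETS1 siRNA, against 9.60 to 9.81. It was the highest of 39 after SP1 siRNA (0.30), where its probe sets ran from -0.089 to 0.51. ETV4, its close relative, differed by -0.22 after ETS1 siRNA. ETS2, the nearest relative of ETS1, lay far below noise, at 7.01 after SP1 siRNA and 6.52 after ETS1 siRNA, against 6.43 to 6.72 in the 5 other arrays.

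**Figure D4:**
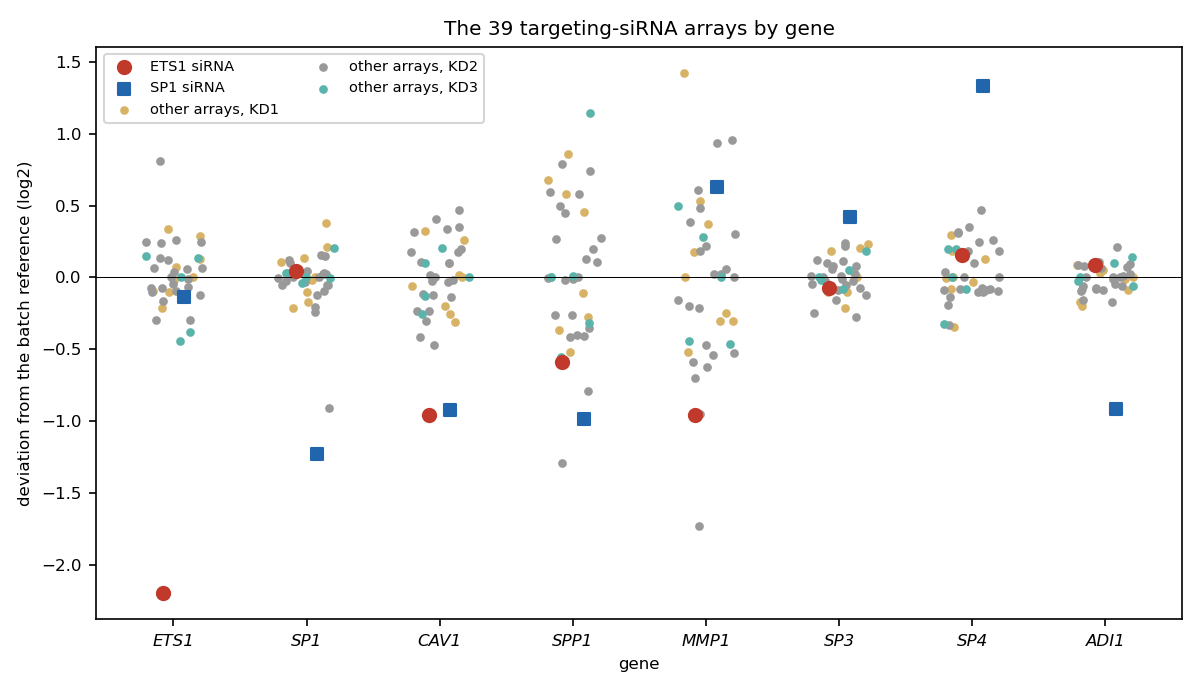
Deviation from the batch reference (y axis, log2) of 8 mRNAs in the 39 arrays with a targeting siRNA; red circles are ETS1 siRNA, blue squares SP1 siRNA, and small points the other 37 arrays coloured by batch, spread sideways so that they can be seen. CAV1 was lowest in the ETS1 and SP1 siRNA arrays, SP3 and SP4 were highest and ADI1 lowest after SP1 siRNA, whereas the 2 arrays lie within the wide scatter of MMP1 and SPP1.

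Described targets of the factors were then taken as lists. Of 21 measured ETS1 targets, 9 lay above noise. Of these, 2 were called lower after ETS1 siRNA (MMP1 and SPP1), whereas 0.147% of all genes were. The same 2 genes were also called after SP1 siRNA, MMP1 higher and SPP1 lower (0.147% and 0.315% of all genes). The list was chosen with earlier results of these data known, so these counts are no test of it. The median of the 9 after ETS1 siRNA was -0.01. It ran from -0.093 to 0.0068 when 1 reference array was left out (-0.093 without CCNB2 or MITF siRNA, -0.056 without MCM2 siRNA). It was -0.12 with the mean of the 5 arrays as the reference and -0.11 over all 21 members. MET, the hepatocyte growth factor receptor, differed by -0.28 after ETS1 siRNA, at 10.50 against 10.71 to 10.86 in the 5 other arrays, and by 0.08 after SP1 siRNA. ITGB3, in contrast, was 0.48 above the reference after ETS1 siRNA, though its probe sets ran from -0.06 to 0.48.

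Of 38 measured SP1 targets, 20 lay above noise and 0 were called after either siRNA, and at the shares of all genes called (0.189% after ETS1 and 0.462% after SP1 siRNA) this is no result about the list. They had a median of -0.01 after SP1 siRNA, 2 of 20 above and 5 of 20 below the range of the 5 arrays (19% of all genes were below it). After SP1 siRNA TYMS, thymidylate synthase, differed by -0.28 and CDKN1A, the p21 cell cycle inhibitor, by -0.21, both inside the range. The probe sets of TYMS ran from -0.28 to 0.095. CCND1, cyclin D1, differed by 0.25, also inside the range, and VEGFA by 0.23, above it. CBS differed by 0.28 and lay above the range too, at 9.72 against 9.38 to 9.47 in the 5 other arrays. The 10 cofactors of SP1 above noise had a median of -0.06, CREBBP, a histone acetyltransferase, being the one with the largest difference (0.33).

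ERK output genes, among which EGR1 was called higher after SP1 siRNA, had a median of -0.03 after ETS1 siRNA and 0.09 after SP1 siRNA, against -0.06 to 0.06 in the 5 other arrays. After SP1 siRNA 7 of 16 lay above the range (17.8% of all genes), including IER3 at 0.31 above the reference. DUSP5, an ERK phosphatase, was 0.39 below the reference after ETS1 siRNA, inside the range of the 5 arrays. The 4 AP-1 factors above noise were all below the reference after ETS1 siRNA, with a median of -0.21, JUND differing by -0.23 and JUNB by -0.22, against medians of -0.12 to 0.08 in the 5 other arrays. The median was -0.079 without STAT3 siRNA and -0.10 without PIAS1 siRNA.

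The list median farthest from 0 after ETS1 siRNA was that of G2 and mitosis genes, where 37 of 38 members lay below the reference, with a median of -0.27. The medians of the reference arrays themselves ran from -0.56 (MITF siRNA) and -0.37 (MCM2 siRNA) to 0.14 (CCNB2 siRNA), and 2 of 38 members lay below their range, whereas 13.3% of all genes did. PLK1, a mitotic kinase, differed by -0.51 and was lowest of 39, and CDK1 differed by -0.52, inside the range. The median was -0.06 without CCNB2 or STAT3 siRNA, so its size depended on which arrays formed the reference.

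After SP1 siRNA the same genes lay above the reference in 31 of 38, with a median of 0.13, and 14 of 38 were above the range of the 5 arrays, whereas 17.8% of all genes were. CENPF, a kinetochore protein, measured 10.89 after SP1 siRNA and 10.23 after ETS1 siRNA, against 10.04 to 10.79, and was the highest of 39. The median was 0.09 without MCM2 or MITF siRNA and up to 0.34 without STAT3 siRNA. DNA replication genes had medians of -0.10 after ETS1 siRNA and 0.04 after SP1 siRNA, inside the range of -0.37 to 0.06 in the 5 other arrays.

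Respiratory chain and ATP synthase genes were slightly below the reference after SP1 siRNA, in 20 of 26 members, with a median of -0.06, against -0.03 to 0.03 in the 5 other arrays. Of these, 10 of 26 were below the range, whereas 19% of all genes were. NDUFA8 of complex I differed by -0.25, SDHD of complex II by -0.26 and COX7B of complex IV by -0.20. The probe sets of SDHD ran from -0.26 to 0.11. After ETS1 siRNA the median was 0.00.

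Of the 4 interferon response genes above noise, 3 lay below the range after SP1 siRNA (19% of all genes did), with a median of -0.32, against -0.17 to 0.07 in the 5 other arrays. Over all 26 measured members, most of them below noise, the median was -0.13. IFI35 measured 8.88 after SP1 siRNA and 9.27 after ETS1 siRNA, against 9.25 to 9.67. The immunoproteasome subunits PSMB8 and PSMB9 differed by -0.31 and -0.33 after SP1 siRNA and by -0.21 and -0.23 after ETS1 siRNA. All 4 genes lay below the reference after ETS1 siRNA too, with a median of -0.17, inside the range of the 5 other arrays. None passed the call rule.

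In matrix and adhesion genes the medians were -0.07 after ETS1 siRNA and -0.06 after SP1 siRNA, inside the range of -0.09 to 0.02. LOXL2, a lysyl oxidase, differed by -0.43 after SP1 siRNA and was lowest of 39, and TIMP2, a metalloprotease inhibitor, by -0.44 after ETS1 siRNA. In these arrays the probe sets of LOXL2 ran from -0.43 to 0.28 and those of TIMP2 from -0.44 to 0.0035. TIMP3 differed by -0.57 after SP1 siRNA, at 10.77, against 10.66 to 11.47. In all, 17 of the 46 list medians (23 lists with at least 3 members above noise, 2 arrays) lay outside the range of the 5 other arrays. Of single genes above noise, 12.4% lay above and 13.3% below that range after ETS1 siRNA, and 17.8% and 19% after SP1 siRNA. The number that an unchanged array would give was not worked out, so this count is no result about the lists.

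**Figure D5:**
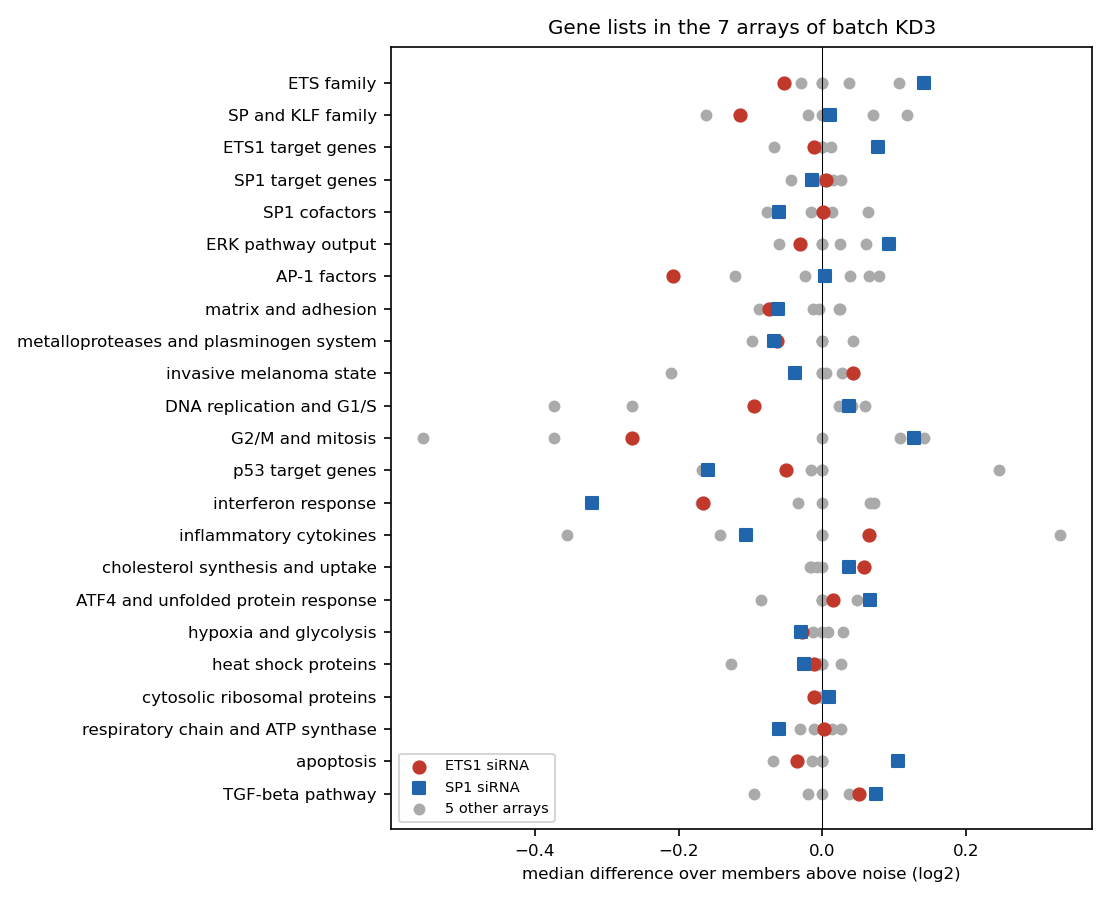
Median difference from the reference (x axis, log2) over the members above noise of 23 gene lists, 1 row each, in the arrays of ETS1 siRNA (red), SP1 siRNA (blue) and the 5 other siRNAs (grey). The spread of the grey points is widest for G2 and mitosis, from -0.56 to 0.14, and encloses the ETS1 siRNA value of -0.27.

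By the same rule, each of the 5 reference arrays was set against the other 4, whose range is easier to leave than that of 5. This called 8 genes higher and 22 lower with CCNB2 siRNA, 21 and 17 with MCM2 siRNA, 12 and 49 with MITF siRNA, 0 and 1 with PIAS1 siRNA and 3 and 2 with STAT3 siRNA. All 7 arrays were alike in quality, with medians of 5.06 to 5.12, correlations of 0.994 to 0.997 with one another, and GAPDH 3'-to-5' differences of -0.14 to -0.09. The melanocyte factor SOX10 stood at 9.92 to 10.45, whereas MITF, MLANA, PMEL, TYR, S100B and PAX3 lay below noise over the 7 arrays. Of these arrays 1 had received MITF siRNA, and MITF medians in KD1 and KD2 were 9.22 and 9.02, above the noise limit. EDNRB, also of the melanocyte list, lay above noise, at a mean of 8.88. No leukocyte, fibroblast or endothelial marker lay above noise, and of the epithelial ones only KRT10 and KRT18 did, KRT18 at 11.70 after SP1 siRNA and 12.05 after ETS1 siRNA, against 12.09 to 12.35. All values are of bulk RNA, in which fewer cells of a type and less RNA per cell cannot be told apart.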

How the data were processed

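RNA of A375 cells was hybridised to Affymetrix U133 Plus 2.0 arrays, and the authors normalised the scanner files with RMA (version not given in the sources used here). The deposited values are linear intensities from 5.54 to 32065 and were taken to log2 without further normalisation. The batch of each siRNA was taken from the study's own list. Of 54675 probe sets, 41097 had 1 gene name, 1801 had several and 11777 had none; symbols were updated through the RefSeq table (GRCh38.p14).

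Each difference is the log2 value of the ETS1 or SP1 siRNA array minus the median of the 5 other KD3 arrays. Arrays have no read depth, and the number of arrays limits the precision. limma 3.58.1 (R 4.3.3) was fitted to the 7 arrays (4 residual degrees of freedom), each lone array being assumed to vary like the other 5, and then to the 39 targeting arrays with batch as a term (34 degrees of freedom). Beyond the batches, nothing says whether cultures were grown on separate occasions. The p-values measure only the spread between these arrays, which may hold both effects of their different siRNAs and technical variation. The fits were also run on simulated data with added changes, drawn independently from a normal distribution. Real arrays need not vary in that way, so those runs do not show how many changes the fits miss here. All else used Python 3.11.15, numpy 2.4.6 and pandas 2.3.3.

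Named genes were the targets, up to 12 called genes in each direction per siRNA, shared and particular genes, both families, and up to 4 members of each of 27 lists. Members and lists were chosen with earlier results of these data known. TPP1, ETS2, IGFBP5, CNOT6, S100A2 and the genes of the wider fit were named after their values were seen. The settings tried were the reference value and arrays, the probe set, the noise limit, the fold, the normalisation and the variance prior.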

Additional observations from a re-analysis of the deposited data

Results flagged for a closer look

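MMP1 was lower than in all 5 other KD3 arrays after ETS1 siRNA and higher than in all 5 after SP1 siRNA, with a log2 difference of -1.59 for ETS1 minus SP1 siRNA. It stood out because the 2 arrays moved in opposite directions, and each direction rests on 1 array. limma on the direct difference did not pass over the 7 arrays or over the 39. In the other 37 targeting arrays MMP1 deviated from its batch reference by -1.73 to 1.42, and its gene is read by 1 probe set.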

How the results depend on the processing

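No paired analysis was possible because each siRNA has 1 array, so the groups compared share fewer than 2 replicate numbers. With control siRNA (mean of 3 arrays, whose batch is not given, so that batch and treatment cannot be told apart) as the reference, ETS1 mRNA differed by -1.32 after ETS1 siRNA and SP1 mRNA by -1.35 after SP1 siRNA, 433 and 506 genes were called, 253 of them shared, 27 list medians lay outside the range, and CEMIP after SP1 siRNA (-0.069), HAPLN1 after ETS1 siRNA (-0.12) and MMP1 after ETS1 siRNA (1.24) changed sign. With dim genes kept, 71 and 186 genes were called, 15 shared and 100 particular. At 3 times the control probe set, 12 were called after SP1 siRNA and 0 were shared, and at 2-fold 1 and 1 were called, 0 shared and 2 particular. With the median of all 7 arrays 1 gene was shared, with the mean of the 5 arrays 11 list medians lay outside, and with the probe set of largest variance 8 genes were particular and SP1 mRNA differed by -1.50. Without 1 reference array at a time, calls numbered 7 to 11 after ETS1 siRNA and 23 to 28 after SP1 siRNA, 1 to 2 shared and 13 to 16 particular, with 16 to 22 list medians outside. limma called 0 to 2 probe sets for SP1 siRNA without 1 array, 3 at an adjusted p under 0.1, 10 with a trended robust prior, and, over 39 arrays, 2 for ETS1 siRNA, 32 for SP1 siRNA and 9 for their difference. The cause of these changes was not tested, except that the fold and noise settings keep fewer or more genes by construction. List medians used members above noise throughout, and 5 of 46 had the opposite sign over all members.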
